A study of Mus musculus with 12 samples.

Results

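The genes described here encode chromatin modifiers and remodellers, the enzymes and partner proteins that write, erase and read marks on histones and DNA or move nucleosomes. They were chosen by a rule on gene symbols, which holds no measured value but was set with earlier results of these data known. The rule takes every Kdm, Kmt, Kat, Hdac, Sirt and numbered Brd and Chd symbol, and the Setd, Dnmt, Tet, Ezh and Smarc symbols. The rule found 89 of the 10655 genes in the deposited table. They comprise 17 histone methyltransferases (Kmt, Setd and Ezh), 15 histone demethylases, 7 acetyltransferases, 16 deacetylases (Hdac and Sirt), 7 bromodomain proteins, 6 enzymes of DNA methylation (Dnmt and Tet), 12 SMARC proteins and 9 CHD remodellers. Families were set by symbol, so the methyltransferases include Setd3, Setd6 and Kmt2e, for which other roles are given below. Of the 89, 85 had reads in every library.

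RNA of mouse aortic endothelial cells, the cells that line the aorta, was sequenced by SMART-seq, a protocol that covers transcripts over their full length. The 12 libraries form 4 groups of 3: WD offspring of WD mothers (WD_WD), WD offspring of CD mothers (CD_WD), CD offspring of WD mothers (WD_CD) and CD offspring of CD mothers (CD_CD). CD and WD are diets, named as the labels name them, and the series title speaks of a high-fat diet in the mother. The mother's diet was read as the first part of each title and the offspring's as the second, the order used in the series text. The WD offspring had been put back on WD for 4 weeks. No genotype, sex, age, sort or batch is given, and nothing says that replicates came from separate animals, so the spread that p-values rest on is that between these samples and may be technical.

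Histone acetylation and methylation near active genes are laid down and removed by opposing enzymes, and bromodomain proteins bind the acetylated form. Polycomb repressive complex PRC2 methylates histones at silenced genes, DNA methyltransferases methylate cytosine and TET enzymes oxidise it. Remodellers of the SWI/SNF type (to which most, but not all, SMARC proteins belong) and of the CHD type slide or evict nucleosomes with energy from ATP. In the endothelium, members of this group such as the deacetylase Hdac7 and the ATPase Smarca4 are known for roles in vascular development in mice.

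The libraries of the 2 offspring diets differed in more than these genes. Reads in the deposited genes numbered 4074413 to 18013966 in WD offspring and 10667657 to 19670570 in CD offspring. The 20 most abundant genes accounted for 35.4% to 46.2% of reads in WD offspring and 12.9% to 14.4% in CD offspring, and the 89 chromatin genes took 0.115% to 0.181% and 0.424% to 0.53%. Of 20 pan-endothelial markers 18 were lower at the threshold in WD offspring, with summed normalised counts of 4358 to 51532 in WD offspring and 72991 to 118269 in CD offspring; only Robo4 was at 0 in a library. Of 15 macrophage and monocyte markers 11 rose, with sums of 80881 to 1210940 in WD offspring and 10107 to 124046 in CD offspring, and 0 of them was at 0 in any library. Of 12 smooth muscle markers 11 fell (Lmod1 at 0 in a library), and 7 of 9 dendritic cell and MHC class II markers (Flt3 and Itgax at 0 in a library), 6 of 10 T and NK cell markers (Cd7 and Il2rb), 4 of 5 neutrophil markers (Csf3r) and 4 of 5 B cell markers (Cd79b among those at 0 in a library) rose, while 1 B cell marker fell. Of 9 fibroblast markers 2 fell, and 4 of 16 proliferation markers rose. CD_WD replicate 1 stood apart, with the lowest endothelial, smooth muscle and fibroblast sums and the highest T cell, B cell and MHC class II sums of the 12 libraries. Since these are bulk libraries, fewer cells of a type and less RNA per cell cannot be told apart. Since no label names a batch, diet and preparation cannot be told apart between the offspring. The part of the marker differences in the results that follow was not tested.

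The main comparison asked how the chromatin genes differed between WD offspring and CD offspring, averaged over both mother diets. Of the 89 genes 3 rose and 16 fell in WD offspring (limma, Benjamini-Hochberg adjusted p under 0.05), which is 21.3% of them, against 37.8% of all genes tested. Upward calls covered 20.1% of all genes and downward calls 17.6%, against 3 and 16 of these 89. The median log2 difference was -0.49 over the 89 genes and -0.02 over all genes, and 64 of the 89 were lower in WD offspring. The share called was therefore lower than in the table as a whole, and the calls were mostly downward. The genes that fell were 9 histone methyltransferases, 2 demethylases and 1 gene in each of the other families except the acetyltransferases. Calls covered 58.8% of the histone methyltransferases and 0% to 22.2% of each other family. The genes that rose were Chd7, Setd4 and Smarce1.

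**Figure D1:**
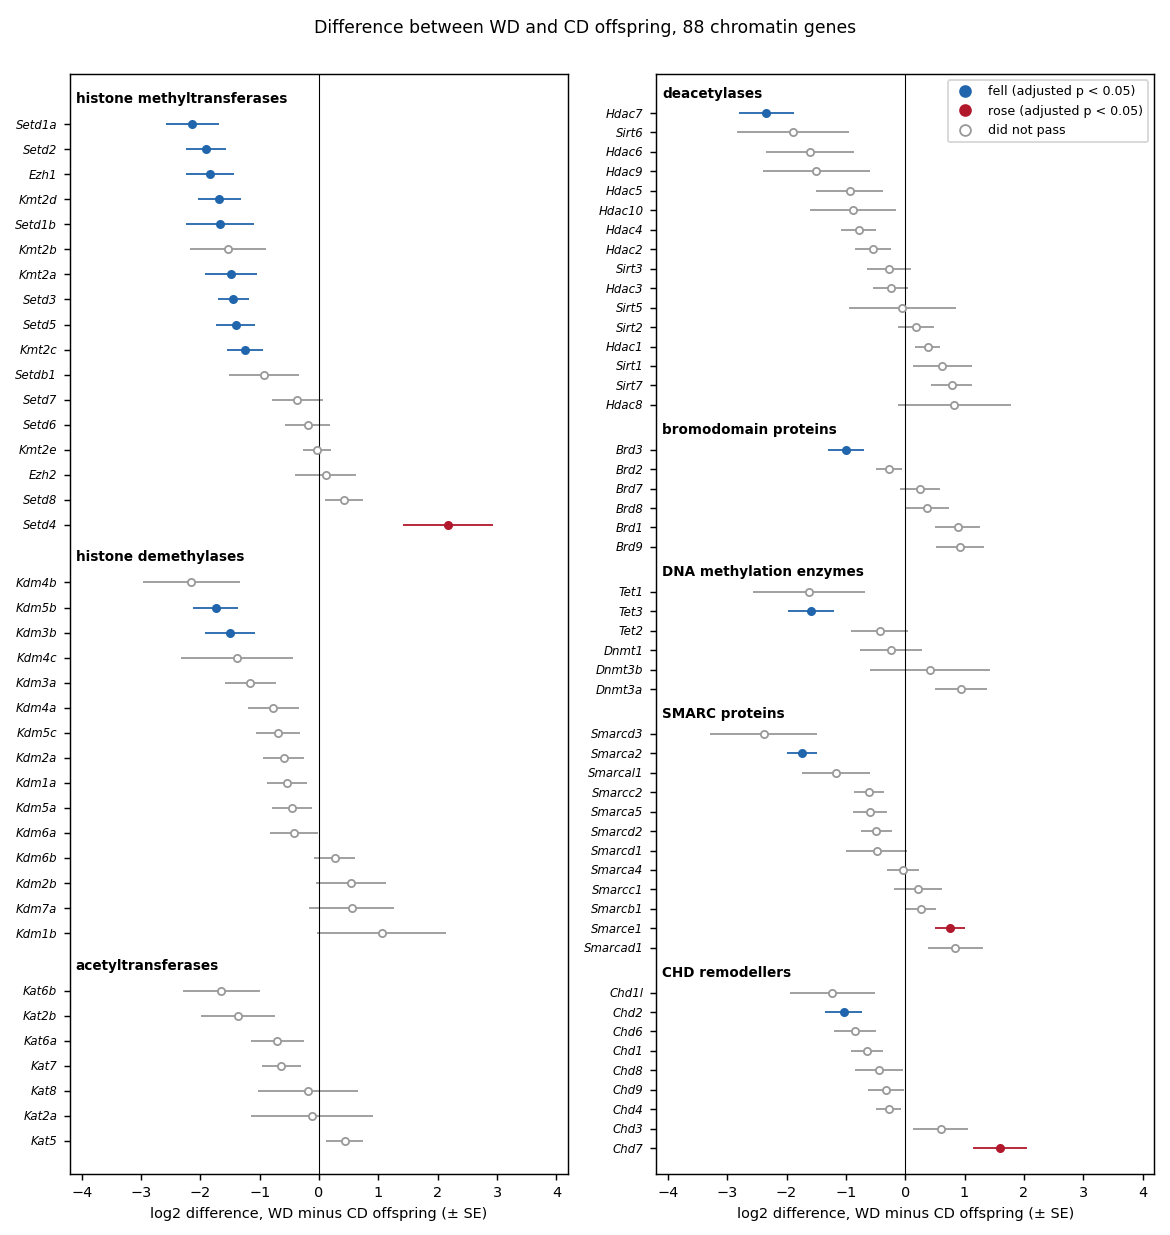
Log2 difference of WD minus CD offspring, averaged over mother diets, for 88 of the 89 chromatin genes (points, with bars of ± 1 SE from limma), grouped by family. Filled points passed the threshold: 16 fell (left of the zero line) and 3 rose (right of it). Of those 19, 10 are classed by symbol as histone methyltransferases.

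Promoter letters are shown for 3 methyltransferase genes that fell and for the methyltransferase gene that rose, since these went opposite ways. Each run holds the 150 bases before the RefSeq start site (build GRCm38.p6), read 5′ to 3′ on the gene's own strand, and overlaps 0 exon bases of the GENCODE annotation. The Setd4 run lies inside the GENCODE span of Setd4 (93583457 to 93604063), so by GENCODE it is not upstream of that gene. The other 3 runs lie outside the GENCODE spans of their genes. Capitals mark the motifs searched on both strands, which were the GC box GGGCGG, the CCAAT box, the TATA motif TATAAA and the ETS motif CCGGAAGT. Setd2 lies at chr9:110532447-110532596 on the plus strand, Ezh1 at chr11:101226464-101226613, Kmt2d at chr15:98871206-98871355 and Setd4 at chr16:93603816-93603965, each of these 3 on the minus strand.
Setd2: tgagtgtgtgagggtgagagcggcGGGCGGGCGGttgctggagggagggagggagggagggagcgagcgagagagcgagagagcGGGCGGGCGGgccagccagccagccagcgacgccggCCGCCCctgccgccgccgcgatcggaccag
Ezh1: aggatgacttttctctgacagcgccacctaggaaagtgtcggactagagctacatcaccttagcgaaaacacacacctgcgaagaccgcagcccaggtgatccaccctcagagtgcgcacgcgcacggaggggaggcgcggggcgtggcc
Kmt2d: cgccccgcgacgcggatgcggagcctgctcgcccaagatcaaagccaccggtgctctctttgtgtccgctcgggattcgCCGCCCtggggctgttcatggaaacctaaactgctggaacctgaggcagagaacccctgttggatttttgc
Setd4: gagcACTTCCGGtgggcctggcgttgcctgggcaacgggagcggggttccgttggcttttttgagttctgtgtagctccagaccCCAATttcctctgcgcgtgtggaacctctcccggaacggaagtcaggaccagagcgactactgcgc

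The Setd2 run holds 5 GC box matches, some of them overlapping, the Kmt2d run holds 1, and the Ezh1 and Setd4 runs hold 0. Setd4 has 1 CCAAT match and 1 ETS match. CpG dinucleotides number 19 in the Setd2 run, 12 in the Ezh1 run, 12 in the Kmt2d run and 11 in the Setd4 run. RefSeq windows of 300 bases (250 before the start and 50 after it) were matched for 70 of the 89 genes, 99 windows in all. A GC box was found in 67.7% of these windows, in 62.9% of the windows of all deposited genes and in 35.7% of all windows in the table. CCAAT was found in 35.4%, 36.9% and 37.4%, TATAAA in 3.03%, 7.15% and 13.6% and the ETS motif in 6.06%, 8.36% and 3.89%, in that order. The 17 windows of genes that fell held a GC box in 64.7% and CCAAT in 17.6%. A match is a description of the letters and not of a bound site.

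Genes classed by symbol as histone methyltransferases held most of the falls. Of 17 measured, 9 fell, 1 rose and 14 were lower in WD offspring, with a median log2 difference of -1.40. Calls covered 58.8% of the 17, against 37.8% of all genes. Setd2, the enzyme that trimethylates histones over transcribed gene bodies (chromosome 9, 110532597 to 110618633), had 84.8, 57.6 and 135 normalised counts in WD_WD and 162, 132 and 107 in CD_WD, against 272, 387 and 697 in WD_CD and 366, 405 and 405 in CD_CD. All 6 values of WD offspring lay below all 6 of CD offspring. It was 3.76-fold lower (log2 -1.91 ± 0.34 SE, limma adjusted p = 0.00105). Setd3, which methylates a histidine of actin, ranged from 134 to 238 (median 174) in WD offspring and from 407 to 628 (median 467) in CD offspring, with no overlap. It was 2.72-fold lower (log2 -1.45 ± 0.26 SE, limma adjusted p = 0.00104).

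Ezh1, a catalytic subunit of PRC2 (chromosome 11, 101191115 to 101226463), had 77.1, 19.7 and 95 normalised counts in WD_WD and 165, 268 and 158 in CD_WD, against 288, 362 and 296 in WD_CD and 526, 371 and 371 in CD_CD. The offspring diets did not overlap, and the 3 WD_WD libraries held the lowest values of all. The log2 difference was -1.83 ± 0.40 SE (limma adjusted p = 0.00385). Ezh2, the other catalytic subunit, ranged from 54.6 to 158 in WD offspring and from 23.6 to 211 in CD offspring, and did not pass. Suz12, a PRC2 partner needed by either subunit and no member of the symbol rule, ranged from 10.3 to 83.7 in WD offspring and from 69.9 to 217 in CD offspring and fell (log2 -1.82 ± 0.52 SE, limma adjusted p = 0.0156). Other PRC2 partners went otherwise: Eed (log2 -0.04, limma adjusted p = 0.953) and Rbbp7 (-0.47, 0.137) did not pass. Rbbp4 rose (log2 1.07, limma adjusted p = 0.0199).

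The 6 genes that encode catalytic subunits of the COMPASS and MLL complexes, which methylate histones at promoters and enhancers, were all lower in WD offspring. Kmt2d, an enhancer methyltransferase (chromosome 15, 98831669 to 98871204), had 229, 267 and 111 normalised counts in WD_WD and 588, 184 and 172 in CD_WD, against 552, 442 and 853 in WD_CD and 846, 866 and 931 in CD_CD. CD_WD replicate 1 was the highest of the WD offspring and lay among the CD offspring, while the other 5 lay below all of them. It was 3.21-fold lower (log2 -1.68 ± 0.36 SE, limma adjusted p = 0.00327). Its close relative Kmt2c ranged from 118 to 383 (median 201) in WD offspring and from 295 to 613 (median 524) in CD offspring, and fell by 1.25 ± 0.30 SE on the log2 scale (limma adjusted p = 0.0062).

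Setd1a ranged from 28.8 to 183 (median 55.3) in WD offspring and from 134 to 352 (median 286) in CD offspring, with an overlap through CD_WD replicate 1. The log2 difference was -2.14 ± 0.45 SE (limma adjusted p = 0.00307), the largest fall among the methyltransferases. Its counts are uncertain, since exons of another annotated gene on the same strand cover 51.8% of its exon bases. Kmt2a ranged from 71.3 to 297 (median 159) in WD offspring and from 241 to 663 (median 443) in CD offspring (log2 -1.49 ± 0.44 SE, limma adjusted p = 0.0184). Without CD_CD replicate 3 it had limma adjusted p = 0.0507. Setd1b ranged from 15.8 to 106 (median 29.6) and from 76.8 to 170 (median 135) in the same order (log2 -1.67 ± 0.57 SE, limma adjusted p = 0.0345). Its call was lost without any of 8 single libraries, which were CD_CD replicates 1 and 3, CD_WD replicates 2 and 3, WD_CD replicates 1 and 2 and WD_WD replicates 1 and 3, with limma adjusted p of up to 0.0803, and it was also lost with edgeR. Kmt2b ranged from 12.1 to 134 in WD offspring and from 60.6 to 160 in CD offspring and did not pass (log2 -1.54, limma adjusted p = 0.0753), though it was called in 3 of 20 other settings.

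Setd5, a SET domain protein known for its role in brain development, ranged from 59.4 to 314 (median 172) in WD offspring and from 308 to 532 (median 423) in CD offspring. It fell by 1.40 ± 0.33 SE on the log2 scale (limma adjusted p = 0.00555). Setd4, a little-studied SET domain protein (chromosome 16, 93583457 to 93604063), was the exception and rose. It had 74.5, 100.1 and 15.8 normalised counts in WD_WD and 241, 83.7 and 55.1 in CD_WD, against 15.3, 5.18 and 35.4 in WD_CD and 16, 9.4 and 26.8 in CD_CD. All but WD_WD replicate 3 of the WD offspring lay above the CD offspring, and that library held 4 Setd4 reads. The log2 difference was 2.17 ± 0.76 SE (limma adjusted p = 0.0397). The call was lost without any of 8 single libraries, which were replicates 1 and 2 of each group, with limma adjusted p of up to 0.109. It was also lost under upper-quartile scaling, with the replicate block and without CD_WD replicate 1 and WD_CD replicate 3 together. Of the 17 methyltransferases 7 did not pass, Ezh2 and Kmt2b included. Another of them, Setdb1, which methylates histones in heterochromatin, had medians of 68.8 in WD offspring and 117 in CD offspring (limma adjusted p = 0.228).

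**Figure D2:**
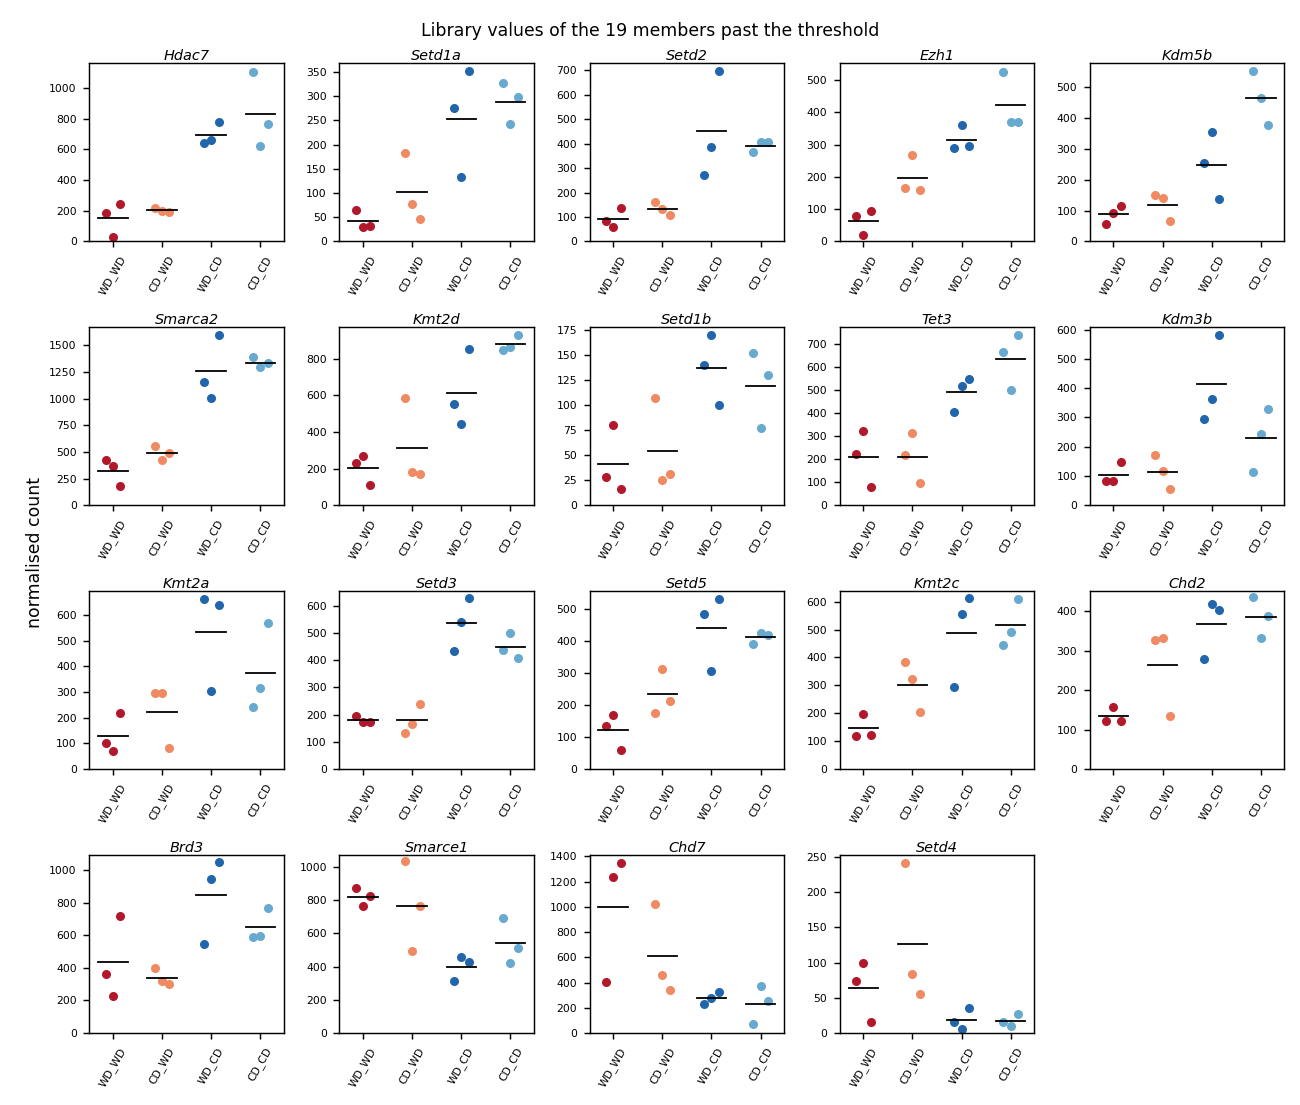
Normalised counts of the 19 chromatin genes that passed between offspring diets, with 1 panel per gene, a linear axis from 0 and 1 point per library, in the order WD_WD, CD_WD, WD_CD and CD_CD; bars mark group means. In 16 panels both WD offspring means lie below both CD offspring means, and in the panels of Chd7, Setd4 and Smarce1 they lie above them; single libraries overlap between the diets in 13 of the 19 panels.

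Of 15 histone demethylases 2 fell and 0 rose (13.3% called, against 37.8% of all genes), and 11 were lower in WD offspring (median log2 -0.60). Kdm5b, which removes methyl groups at active promoters (chromosome 1, 134560171 to 134635285), had 56.5, 92.5 and 115 normalised counts in WD_WD and 149.6, 140.2 and 65.4 in CD_WD, against 254, 355 and 137 in WD_CD and 553, 465 and 377 in CD_CD. WD_CD replicate 3 lay within the range of the WD offspring and the other 5 CD offspring lay above it. It was 3.34-fold lower (log2 -1.74 ± 0.38 SE, limma adjusted p = 0.00352). Kdm3b, a demethylase of repressive histone marks, ranged from 54.2 to 172 (median 99.7) in WD offspring and from 112 to 582 (median 313) in CD offspring (log2 -1.50 ± 0.42 SE, limma adjusted p = 0.0138). Exons on the opposite strand cover 24.6% of its exon bases, and the handling of strand is not given in the sources used here.

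Kdm3a, the close relative of Kdm3b, ranged from 36.4 to 190.1 in WD offspring and from 208 to 360 in CD offspring, with no overlap, yet had limma adjusted p = 0.0501 and did not pass. It was called in 10 of 21 other settings, with edgeR, DESeq2, both other scalings, array weights, pseudocount 8 and the filter at a mean of 100 among them, and not with the replicate block. Kdm4b ranged from 1.52 to 205 in WD offspring and from 67.5 to 263 in CD offspring (limma adjusted p = 0.0529), with 1 read in WD_WD replicate 2, and was called in 9 of 21 other settings. Kdm6a and Kdm6b, which remove the Polycomb mark, had log2 differences of -0.42 and 0.26 and did not pass. Kdm1b, a relative of the lysine demethylase Kdm1a, was at 0 in WD_CD replicate 1, where 0 reads allow up to 1.27 normalised counts.

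Acetyltransferases had 0 calls of 7, against 37.8% of all genes. Of the 7, 6 were lower in WD offspring, with a median log2 difference of -0.63. Kat6b, the catalytic subunit of the MORF complex, had 95, 253 and 11.9 normalised counts in WD_WD and 71, 25.1 and 36.2 in CD_WD, against 156.5, 188.5 and 158.5 in WD_CD and 196, 148 and 149 in CD_CD. WD_WD replicate 2 was the highest of all 12 libraries, while the other 5 WD offspring lay below every CD offspring. The log2 difference of -1.65 ± 0.65 SE did not pass (limma adjusted p = 0.0603). It was called in 5 of 21 other settings, which were pseudocount 8, TMM scaling, upper-quartile scaling, array weights and the fit without WD_WD replicate 2, and was -1.05 without WD_WD replicate 3. Array weights also called Kat6a and Kat7. Kat5, the catalytic subunit of the TIP60 complex, was the 1 gene of the family with a positive difference (log2 0.43, limma adjusted p = 0.288).

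Of 16 deacetylases 1 fell (6.25% called, against 37.8% of all genes), and 11 were lower in WD offspring (median log2 -0.41). Hdac7, a class IIa deacetylase that keeps vessels intact in mouse embryos (chromosome 15, 97792664 to 97844502), had 185, 25.8 and 245 normalised counts in WD_WD and 218, 201 and 192 in CD_WD, against 638, 663 and 779 in WD_CD and 1105, 621 and 767 in CD_CD. The offspring diets did not overlap, and WD_WD replicate 2 was far below the others of its group with 17 reads. It was 5.06-fold lower (log2 -2.34 ± 0.47 SE, limma adjusted p = 0.00217), the largest fall among the genes that passed. The other class IIa genes did not pass, with log2 differences of -0.78 for Hdac4 (limma adjusted p = 0.0523), -0.93 for Hdac5 (0.207) and -1.50 for Hdac9 (0.207). Hdac4 was called in 10 of 21 other settings, and exons on the opposite strand cover 22.4% of its exon bases. Hdac9 and Sirt6 were at 0 in WD_WD replicate 3, where 0 reads allow up to 11.9 normalised counts. Hdac1 and Hdac2, the paired catalytic subunits of the NuRD and Sin3 complexes, had log2 differences of 0.38 and -0.55, and neither passed. Among the sirtuins, deacylases that use NAD, 0 of 6 passed. Sirt7, the nucleolar sirtuin, ranged from 578 to 2926 in WD offspring and from 391 to 748 in CD offspring, with the highest value in CD_WD replicate 1 (log2 0.78, limma adjusted p = 0.09), and was called with DESeq2 and without CD_WD replicate 3.

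Among 7 bromodomain proteins 1 fell (14.3% called, against 37.8% of all genes). Their median log2 difference of 0.25 was the highest of the 8 families. Brd3, a BET protein that binds acetylated histones at transcribed genes, had 362, 229 and 721 normalised counts in WD_WD and 398, 320.1 and 300.4 in CD_WD, against 549, 944 and 1051 in WD_CD and 587, 598 and 766 in CD_CD. WD_WD replicate 3 lay among the CD offspring and the other 5 WD offspring lay below them. Its level in WD offspring was 0.501 times that in CD offspring (limma adjusted p = 0.0205), and without CD_CD replicate 3 the limma adjusted p was 0.05 by rounding and the call was lost. Brd2, also a BET gene, had a log2 difference of -0.28 and did not pass.

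Of the 6 enzymes of DNA methylation, 1 fell (16.7% called, against 37.8% of all genes). Tet3, a dioxygenase that starts the removal of DNA methylation (chromosome 6, 83362373 to 83459084), had 223, 320 and 79.2 normalised counts in WD_WD and 215, 312 and 98.1 in CD_WD, against 403, 516 and 548 in WD_CD and 661, 499 and 737 in CD_CD. The offspring diets did not overlap. The log2 difference was -1.58 ± 0.39 SE (limma adjusted p = 0.00706). Tet2, which acts on the same base, ranged from 41.1 to 220 in WD offspring and from 96.4 to 313 in CD offspring and did not pass. Dnmt1, the maintenance methyltransferase, had medians of 136 in WD offspring and 241 in CD offspring (log2 -0.24, limma adjusted p = 0.742). Dnmt3b was at 0 in WD_CD replicate 1 and had medians of 28.2 in WD offspring and 28 in CD offspring.

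Of the 12 SMARC genes 1 fell and 1 rose (16.7% called, against 37.8% of all genes). Smarca2, an ATPase of SWI/SNF complexes also called BRM (chromosome 19, 26605050 to 26778322), had the smallest p of all 89 genes. It had 426, 372 and 178 normalised counts in WD_WD and 553, 423 and 485 in CD_WD, against 1157, 1007 and 1597 in WD_CD and 1387, 1293 and 1329 in CD_CD. The highest WD offspring library lay far below the lowest CD offspring library. It was 3.33-fold lower (log2 -1.74 ± 0.25 SE, limma adjusted p = 0.000282). Smarca4, the alternative ATPase also called BRG1, ranged from 311 to 1397 in WD offspring and from 425 to 950.3 in CD offspring, and its log2 difference of -0.04 did not pass.

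Smarce1, a DNA-binding SWI/SNF subunit, had 871, 766 and 824 normalised counts in WD_WD and 1034, 492 and 762 in CD_WD, against 313, 455 and 425 in WD_CD and 690, 422 and 511 in CD_CD. CD_WD replicate 2 lay within the CD offspring and the other 5 WD offspring lay above them. The log2 difference was 0.76 ± 0.25 SE (limma adjusted p = 0.029). Its call was lost without CD_CD replicate 2 or 3, CD_WD replicate 3, WD_CD replicate 1 or WD_WD replicate 1, with limma adjusted p of up to 0.0773. It was also lost under TMM scaling, upper-quartile scaling, array weights and edgeR, and without CD_WD replicate 1 and WD_CD replicate 3 together. Smarcd3, a subunit known from muscle, had medians of 131 in WD offspring and 445 in CD offspring (log2 -2.38, limma adjusted p = 0.0527), and was called in 9 of 21 other settings. Exons on the opposite strand cover 48.2% of its exon bases.

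Of the 9 CHD remodellers 1 rose and 1 fell (22.2% called, against 37.8% of all genes). Chd7, a remodeller whose loss in humans causes CHARGE syndrome (chromosome 4, 8690406 to 8867659), had 406, 1234 and 1346 normalised counts in WD_WD and 1022, 462 and 338 in CD_WD, against 233, 278 and 323 in WD_CD and 71.1, 371 and 253 in CD_CD. CD_WD replicate 3 lay within the CD offspring and the other 5 WD offspring lay above them. It was 3.02-fold higher (log2 1.59 ± 0.46 SE, limma adjusted p = 0.016). Chd2, a remodeller linked to histone deposition at transcribed genes, ranged from 123 to 333 (median 146) in WD offspring and from 280.4 to 436 (median 396) in CD offspring (log2 -1.04 ± 0.31 SE, limma adjusted p = 0.0187). Exons of other genes on the same strand cover 18.4% of its exon bases. Chd3 and Chd4, ATPases of the NuRD complex, had log2 differences of 0.60 and -0.28 and did not pass. Chd3 ranged from 298 to 2928 in WD offspring, with the highest value in CD_WD replicate 1, and from 319.6 to 447 in CD offspring.

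The libraries of both offspring diets did not overlap for 7 of the 89 genes, all lower in WD offspring: Ezh1, Hdac7, Kdm3a, Setd2, Setd3, Smarca2 and Tet3. Over all genes 9.69% had no overlap with WD offspring lower and 12.6% with WD offspring higher, against 0 of the 89 in the upward direction. The 7 genes are 7.87% of the 89, which is not above the share in the table. Calls of 14 of the 19 genes held in all 21 other settings, which were Chd2, Chd7, Ezh1, Hdac7, Kdm3b, Kdm5b, Kmt2c, Kmt2d, Setd1a, Setd2, Setd3, Setd5, Smarca2 and Tet3. Leaving out CD_WD replicate 1 and WD_CD replicate 3 together, the libraries that stood apart and an alternative chosen after seeing the data, gave 1 rise and 19 falls, with 17 of the 19 calls shared. Over all genes 35% were then called. Array weights gave 3 rises and 29 falls, and called 44.4% of all genes.

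**Figure D3:**
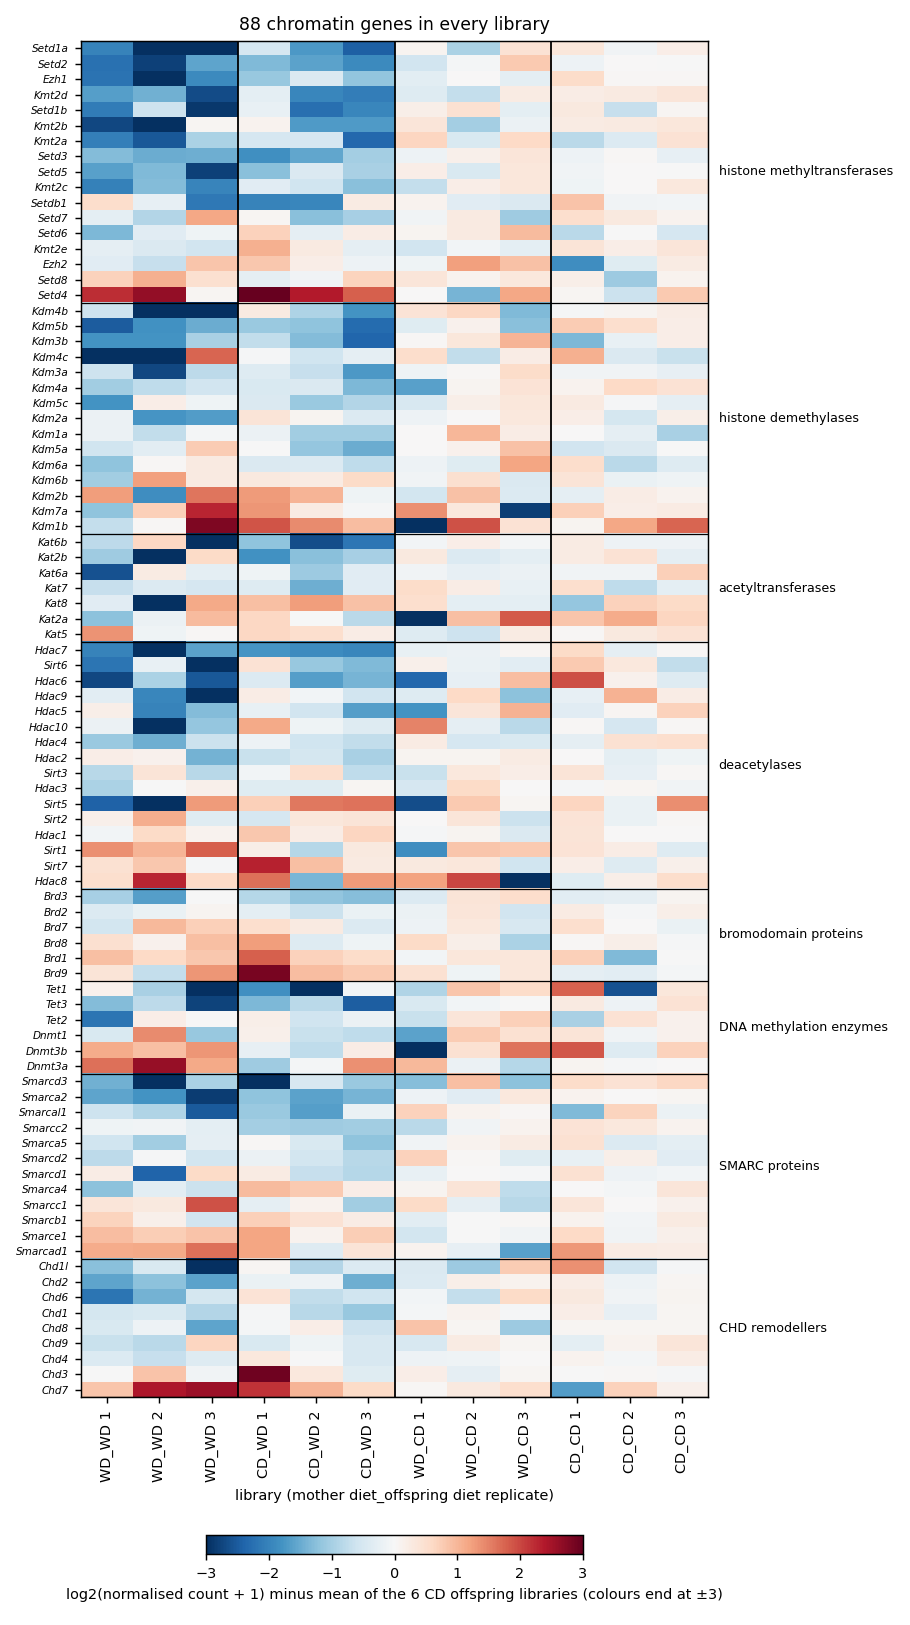
Levels of 88 of the 89 chromatin genes (down the page, by family) in each of the 12 libraries (across, in the order WD_WD, CD_WD, WD_CD, CD_CD), coloured by log2 level minus the gene's mean over the CD offspring. The median over all 89 lay between -0.63 and -0.06 in the 6 WD offspring libraries and between -0.11 and 0.21 in the 6 CD offspring libraries.

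Per library, the median of the 89 genes relative to the mean of CD offspring was -0.63, -0.45 and -0.37 in WD_WD and -0.06, -0.51 and -0.57 in CD_WD on the log2 scale. The same value for all genes lay between 0.08 and 0.12 in those 6 libraries. CD_WD replicate 1 thus had chromatin gene levels nearest to those of CD offspring, at 48 of 89 genes below their CD offspring mean, against 55 to 66 in the other 5. It held the highest value of the 12 libraries for 14 of the 89 genes, against 18 for WD_CD replicate 3, 13 for CD_CD replicate 1 and 1 to 12 for the others. Its 14 include Brd9 (4480 normalised counts), Kmt2e (3200), Chd3 (2928) and Sirt7 (2926).

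The difference between the offspring diets was related to gene length over the whole table. Genes were split into 5 classes of equal size by exon length, from at most 2455 bases to at least 7688. Over all genes the median log2 difference between WD and CD offspring was 0.85, 0.23, -0.08, -0.29 and -0.66 from the shortest to the longest class. Chromatin genes are long, with a median of 7377 exon bases against 4464 over all genes, and 68 of the 89 lie in the 2 longest classes. Their median difference was -0.61 in the fourth class (n = 25) and -0.60 in the longest (n = 43), against -0.29 and -0.66 for all genes of those classes. In the third class it was -0.48 (n = 13) against -0.08 for all genes, and in the second -0.19 (n = 7) against 0.23. The shortest class held 1 chromatin gene, at -0.19 against 0.85. In these shorter classes 0 chromatin genes rose and 0 fell. Over all genes of these classes 16% to 41.8% rose and 5.52% to 17.9% fell. The longest class held 11 of the 16 falls, or 25.6% of its 43 chromatin genes, and 31% of all genes of that class fell. The other 5 falls were in the fourth class, 20% of its 25 chromatin genes, against 21.5% of all its genes.

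**Figure D4:**
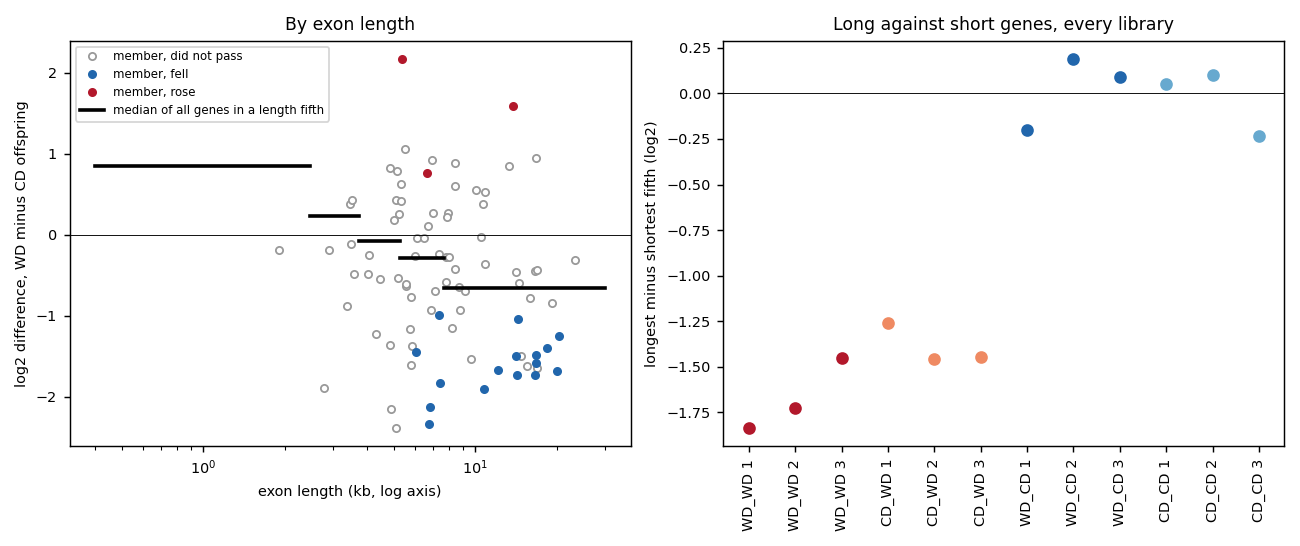
Left, log2 difference of WD minus CD offspring against exon length in kb (log axis), with chromatin genes as points and the median of all genes in each of 5 length classes. Right, median of the longest minus that of the shortest class in each library, relative to CD offspring; it lay between -1.83 and -1.26 in WD offspring and between -0.23 and 0.19 in CD offspring.

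Across genes the log2 difference and log2 exon length had Pearson's r of -0.347 (Spearman's rho -0.335) over 10592 genes with a length, and -0.184 (rho -0.215) over the 89 chromatin genes. Genes of 1 library share its depth and preparation, so these values are descriptions. The contrast of long against short genes was present in each of the 6 WD offspring libraries, at -1.83, -1.73 and -1.45 in WD_WD and -1.26, -1.46 and -1.45 in CD_WD on the log2 scale. In CD offspring it was -0.20, 0.19 and 0.09 in WD_CD and 0.05, 0.10 and -0.23 in CD_CD. Its part in single falls was not tested.

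With the mother diets taken separately, WD_WD against WD_CD gave 2 rises and 13 falls among the 89 genes, 16.9% of them, against 24.4% of all genes. The median log2 difference was -0.67 for the 89 genes and 0.01 for all genes. Calls covered 14.2% of all genes upward and 10.2% downward, and an unadjusted p under 0.05 was found for 25 of the 89 (28.1%) and 38.8% of all genes. The libraries did not overlap for 25 of the 89 with WD_WD lower (19.4% of all genes) and for 7 with WD_WD higher (21.9% of all genes). Falls were Chd2, Ezh1, Hdac7, Kdm3b, Kdm4b, Kmt2a, Kmt2c, Kmt2d, Setd1a, Setd2, Setd3, Setd5 and Smarca2, and rises were Dnmt3a and Smarce1. Ezh1 differed by -2.55 ± 0.57 SE on the log2 scale (limma adjusted p = 0.00808) and Smarca2 by -2.01 ± 0.36 SE (limma adjusted p = 0.00245). Dnmt3a, the de novo DNA methyltransferase, had 1320, 2561 and 923 normalised counts in WD_WD and 829, 371 and 230.0 in WD_CD, with no overlap (log2 1.82 ± 0.61 SE, limma adjusted p = 0.0477). The call of Dnmt3a was lost in 14 of 22 other settings and that of Smarce1 in 16. Neither was called under TMM scaling, upper-quartile scaling, array weights, edgeR or the replicate block, each of which gave 0 rises, nor without WD_WD replicate 2, WD_CD replicate 2 or 3 or CD_CD replicate 2 or 3. Without WD_CD replicate 2, or without WD_CD replicate 3, 8 genes were called in place of 15 (15% and 16.2% of all genes), and 9 were with array weights (21.8% of all genes).

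CD_WD against CD_CD gave 0 rises and 6 falls among the 89 genes, 6.74% of them, against 15% of all genes, with a median log2 difference of -0.51 for the 89 and -0.02 for all genes. Calls covered 9.46% of all genes upward and 5.55% downward, and an unadjusted p under 0.05 was found for 17 of the 89 (19.1%) and 30.2% of all genes. The libraries did not overlap for 27 of the 89 with CD_WD lower (21.6% of all genes) and for 4 with CD_WD higher (21.9% of all genes). The falls were Kdm5b, Kmt2d, Setd2, Setd3, Smarca2 and Smarcc2. Smarca2 differed by -1.46 ± 0.36 SE on the log2 scale (limma adjusted p = 0.0176) and Kdm5b by -2.04 ± 0.53 SE (limma adjusted p = 0.0233). Smarcc2, a scaffold subunit of SWI/SNF, had 200.3, 192.5 and 195 normalised counts in CD_WD and 537, 501 and 432 in CD_CD (log2 -1.31 ± 0.35 SE, limma adjusted p = 0.0261). Without any 1 of the 3 CD_CD libraries 0 of the 89 genes were called. Over all genes 6.55%, 6.62% and 10.4% were then called, without CD_CD replicates 1, 2 and 3. Without CD_WD replicate 2 the count was 2 (12% of all genes), and without WD_WD replicate 3 it was 10 (15.1% of all genes). It was 30 with limma's array weights and 10 with DESeq2. Over all genes array weights called 39.8% and DESeq2 22.3%. Both comparisons entered 1 model, and whether they differed is the interaction, given further on.

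Ratios within pairs of related genes ask whether the pair shifted in make-up between WD and CD offspring. Of 12 pairs listed, 11 could be tested, with an exact two-sided permutation test within each mother diet whose smallest possible p is 0.005. With Benjamini-Hochberg adjustment over the 11 pairs 0 passed, and 4 had an adjusted p of 0.055. That is the lowest adjusted value a single pair can reach alone, so no pair could pass by itself, however clear its shift. The log2 ratio of Ezh2 to Ezh1 averaged -0.07 ± 1.04 (SD) in WD offspring and -2.02 ± 1.34 in CD offspring, a difference of 1.95 (exact permutation p = 0.005). For Smarca4 to Smarca2 it averaged 0.88 ± 0.74 in WD offspring and -0.82 ± 0.61 in CD offspring, a difference of 1.70 (exact permutation p = 0.01). For Hdac1 to Hdac2 the difference was 0.92 (exact permutation p = 0.015), and for Chd4 to Chd3 it was -0.88 (exact permutation p = 0.02). The Chd4 to Chd3 ratio was -1.47 in CD_WD replicate 1, against -0.40 to 1.04 in the other WD offspring. With single libraries left out its difference lay between -1.10 and -0.48, with adjusted exact permutation p of up to 0.253. A further 6 pairs, among them Dnmt1 to Dnmt3a and Kdm6a to Kdm6b, had adjusted exact permutation p-values of 0.189 to 0.512. The count of passing pairs was 4 with a pseudocount of 8 or without CD_WD replicate 3, and 5 without WD_WD replicate 1.

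**Figure D5:**
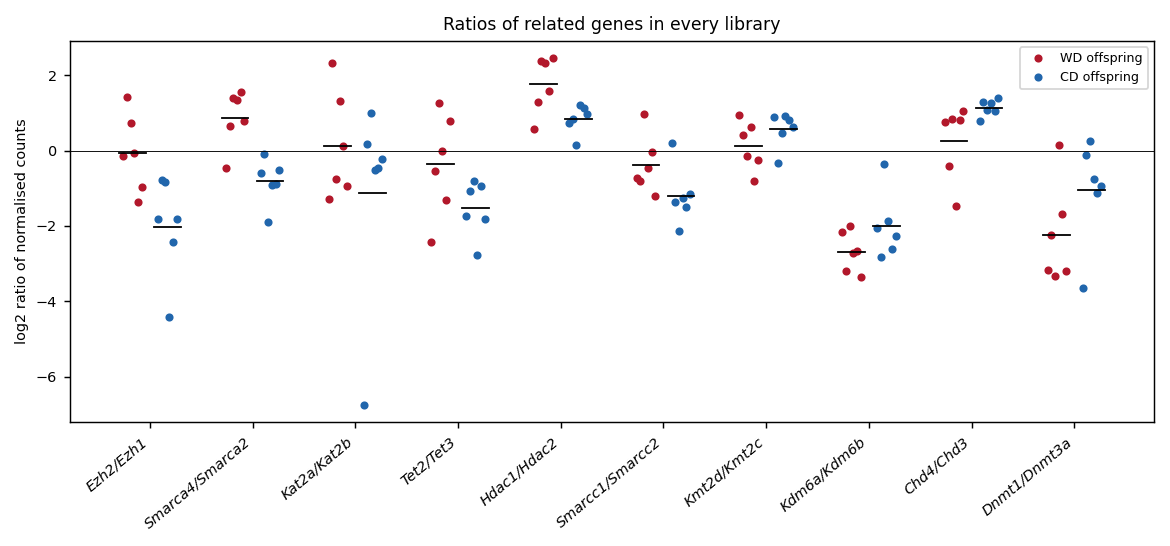
Log2 ratio of normalised counts within 10 of the 11 tested pairs of related chromatin genes, with 1 point per library, WD offspring left of CD offspring in each pair. In WD offspring the ratio of Smarca4 to Smarca2 ran from -0.45 to 1.56 and that of Ezh2 to Ezh1 from -1.38 to 1.42, against -1.91 to -0.08 and -4.42 to -0.78 in CD offspring.

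Among offspring on WD, those of WD mothers (WD_WD) were compared with those of CD mothers (CD_WD). Of the 89 genes 0 passed in limma, against 0% of all genes. At an unadjusted p under 0.05 limma listed 10 of the 89 (11.2%), against 5.89% of all genes, edgeR listed 11 and DESeq2 12, against 5.1% and 7.27% of all genes, and both called 0 of the 89 after adjustment. The median log2 difference was -0.30 over the 89 genes and -0.03 over all genes. WD_WD did not overlap CD_WD for 4 genes that were lower, Ezh1, Kmt2c, Setd5 and Smarca4 (4.16% of all genes), and 4 that were higher, Dnmt3b, Sirt1, Smarcc1 and Smarcc2 (5.86% of all genes). Smarca4 had 311, 582 and 467 normalised counts in WD_WD and 1397, 1245 and 838 in CD_WD. All 3 WD_WD libraries lay below all 3 CD_WD libraries (log2 -1.37 ± 0.38 SE, limma adjusted p = 0.836). Ezh1, with the values given above, also did not overlap (log2 -1.84 ± 0.57 SE, limma adjusted p = 0.836), and the difference was -1.15 without WD_WD replicate 2. Smarcc2 had 372.5, 373 and 333 in WD_WD and 200.3, 192.5 and 195 in CD_WD, a log2 difference of 0.87 ± 0.35 SE (limma adjusted p = 0.836).

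Dnmt3a had the values given above in WD_WD and 200.3, 404 and 1089 in CD_WD, where CD_WD replicate 3 lay among the WD_WD libraries (log2 1.71 ± 0.61 SE, limma adjusted p = 0.836). It was 1.14 without CD_WD replicate 1, the library that stood apart. Smarcc1, the other scaffold subunit, had 226, 214 and 657 in WD_WD and 145, 188 and 84.4 in CD_WD, a log2 difference of 1.26 ± 0.57 SE (limma adjusted p = 0.836). It was 0.73 without WD_WD replicate 3. Kdm2a, a demethylase that binds CpG islands, had 285, 92.5 and 99 in WD_WD and 421, 337 and 239 in CD_WD, a log2 difference of -1.23 ± 0.49 SE (limma adjusted p = 0.836). The authors' deposited table gave 0 of the 89 genes an adjusted p under 0.05 in this comparison, against 0.338% of all genes. The authors' deposited table gave 16 (18%) an unadjusted p under 0.05, against 9.17% of all genes, and in it Smarca4 had the lowest adjusted p of the 89, 0.0814, with a log2 difference of -1.35.

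Among offspring on CD, those of WD mothers (WD_CD) were compared with those of CD mothers (CD_CD). Of the 89 genes 0 passed, against 0% of all genes, and 0 had an unadjusted p under 0.05 in limma, edgeR or DESeq2, against 2.59% of all genes in limma. The median log2 difference was -0.14 over the 89 genes and -0.05 over all genes. WD_CD did not overlap CD_CD for 4 genes that were lower, Ezh1, Kdm5b, Kmt2e and Smarcad1 (4.87% of all genes), and 3 that were higher, Hdac2, Kdm5a and Setd6 (4% of all genes). Smallest p-values belonged to Kmt2e, a chromatin reader with a SET domain, with 1032, 1446 and 1257 normalised counts in WD_CD and 2020, 1754 and 1982 in CD_CD. Its groups did not overlap (log2 -0.63 ± 0.33 SE, limma adjusted p = 1 by rounding). Next downward were Kdm5b (log2 -0.99 ± 0.53 SE) and Smarcad1, a remodeller that acts at replication forks (log2 -1.18 ± 0.66 SE). Upward they were Ezh2 (1.33 ± 0.73 SE), the demethylase Kdm1a (0.81 ± 0.48 SE) and Setd6, which methylates an NF-kB subunit (0.87 ± 0.54 SE), each with limma adjusted p = 1 by rounding. Single libraries moved several of these log2 differences by more than 1.5 times: without WD_CD replicate 3 they were -0.61 for Kdm5b and -0.66 for Smarcad1, without CD_CD replicate 1 that of Ezh2 was 0.73, and that of Kdm1a was 0.51 without WD_CD replicate 2 and 0.53 without CD_CD replicate 3. The authors' deposited table gave 0 of the 89 an adjusted p under 0.05, against 0.122% of all genes, and 0 an unadjusted p under 0.05, against 3.71% of all genes.

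The interaction asks whether the effect of the mother's diet differed between WD offspring and CD offspring. Of the 89 genes 0 passed, against 0% of all genes, and limma listed 3 at an unadjusted p under 0.05, 3.37% of the 89 against 3.21% of all genes. With edgeR and DESeq2 the unadjusted counts were 4 and 5, against 2.87% and 4.25% of all genes, and the adjusted counts 0. The 3 were Smarcc2 (log2 1.41 ± 0.50 SE), Smarcad1 (2.08 ± 0.93 SE) and Setd6 (-1.69 ± 0.77 SE), each with limma adjusted p = 0.997. Smarcc2 averaged 359 ± 23.2 normalised counts (SD, n = 3) in WD_WD and 196 ± 3.94 in CD_WD, and 347 ± 106 in WD_CD and 490.2 ± 53.5 in CD_CD. Smarcad1 averaged 208 ± 46 in WD_WD and 121 ± 64.5 in CD_WD, and 61.8 ± 32.6 in WD_CD and 134 ± 62.7 in CD_CD. Next by p came Smarca4 (-1.16 ± 0.54 SE), Brd9, a bromodomain subunit of a SWI/SNF complex (-1.63 ± 0.80 SE), and Dnmt3a (1.75 ± 0.87 SE), also with limma adjusted p = 0.997. That of Brd9 was -0.97 without CD_WD replicate 1.

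Partners of these enzymes in the same complexes, 150 genes outside the symbol rule, were listed by complex. In WD offspring against CD offspring 11 rose and 28 fell, 26% of them, against 37.8% of all genes, with a median log2 difference of -0.37. Over all genes 20.1% rose and 17.6% fell. The lists were made with earlier results of these data known. Among 15 partners in SWI/SNF complexes 4 fell and 0 rose. Arid2, which targets the PBAF form, ranged from 43.7 to 98.9 in WD offspring and from 255 to 536 in CD offspring (log2 -2.53 ± 0.32 SE, limma adjusted p = 0.000106). Arid1b, of the BAF form, differed by -1.76 ± 0.39 SE (limma adjusted p = 0.00392). Among 24 Polycomb partners 1 rose (Rbbp4) and 2 fell. Cbx6, a chromobox reader of PRC1, ranged from 27.3 to 107 in WD offspring and from 349 to 596 in CD offspring (log2 -2.93 ± 0.42 SE, limma adjusted p = 0.000237), and Suz12, given above, was the other fall.

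Among 24 acetyltransferases outside the rule and their partners 1 rose and 7 fell, against 20.1% and 17.6% of all genes. The same shares over all genes apply to the COMPASS and NuRD lists. Hat1, which acetylates newly made histones, ranged from 292 to 798 in WD offspring and from 66.2 to 212 in CD offspring and rose (log2 2.05 ± 0.34 SE, limma adjusted p = 0.000665), while Msl1 fell (log2 -1.72 ± 0.44 SE, limma adjusted p = 0.00925). Among 12 COMPASS partners 2 rose and 1 fell. Dpy30 and Pagr1a, small partner subunits, rose by 1.52 ± 0.31 SE and 1.32 ± 0.26 SE on the log2 scale (limma adjusted p = 0.00253 and 0.002). Their catalytic partners Kmt2c, Kmt2d and Setd1a fell, as given above. Among 10 NuRD partners Mta1 fell (log2 -2.54 ± 0.52 SE, limma adjusted p = 0.00246) and Rbbp4, a histone chaperone, rose (1.07 ± 0.32 SE, limma adjusted p = 0.0199).

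Among 15 deacetylase corepressors 1 rose and 2 fell, against 20.1% and 17.6% of all genes, shares that apply to each list below as well. Sin3b, a scaffold of the Sin3 complex, ranged from 1460 to 3251 in WD offspring and from 539 to 899 in CD offspring and rose (log2 1.48 ± 0.25 SE, limma adjusted p = 0.000632), and Rcor3 fell (-1.75 ± 0.47 SE, limma adjusted p = 0.0119). Among 17 methyltransferases outside the rule 0 rose and 3 fell, with Ehmt1 at -1.57 ± 0.40 SE (limma adjusted p = 0.00886) and Ash1l at -1.17 ± 0.34 SE (limma adjusted p = 0.0162). Of 23 ISWI, INO80 and SRCAP partners 4 rose and 4 fell, with Znhit1 at 1.99 ± 0.27 SE and Bptf at -1.38 ± 0.34 SE. Of 13 readers and partners of DNA methylation 2 rose and 4 fell, with Gadd45a, a stress-induced factor linked to DNA demethylation, at 1.95 ± 0.24 SE and Zbtb4, a reader of methylated DNA, at -1.93 ± 0.33 SE.

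Levels were compared between genes as normalised counts per kb of exon. Hdac1 was highest of the 89 in both offspring diets, at 339 per kb in WD offspring and 258 in CD offspring. In CD offspring it was followed by Brd2 (180.1), Smarcd2 (161), Kmt2e (151), Sirt2 (139.8) and Kdm6b (138). In WD offspring Sirt7 was the second, at 232 per kb, a place that rests on CD_WD replicate 1: without that library it had 165 per kb and was the fourth, after Kdm6b and Sirt2 at 180.2 and 179.5. Hdac7 had rank 44 of 89 in WD offspring (26.3 per kb) and rank 9 in CD offspring (113), and Smarca2 rank 42 (28.5) and rank 15 (90.8). Setd4 had rank 54 in WD offspring (17.7 per kb) and was the lowest of the 89 in CD offspring (3.35).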

How the data were processed

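SMART-seq libraries of mouse aortic endothelial cells were read from 1 deposited table of 10655 genes. Per the submitters' processing notes, the build was GRCm38 (mm10) and the tools were featureCounts 2.0.1, DESeq2, HISAT2 2.2.1, Trim Galore 0.6.10, SAMtools 1.13 and FastQC 0.12.1. Settings, strand handling and the rule by which genes entered the table are not stated there. The deposited values are a normalised signal, that is read counts scaled by library: 100% of the 127860 values were multiples of the worth of 1 read within a tolerance of 0.01, taking the lowest value of CD_CD replicate 3 as 3 reads. The authors' deposited table also gives log2 fold changes, p-values and adjusted p-values for the mother diet. As these values are scaled and edgeR was planned for raw counts only, the main test was limma 3.58.1 with a trend (R 4.3.3) on log2(normalised value + 1), a scale that understates the change of low genes. It used 1 model with 4 group means over all 12 libraries and Benjamini-Hochberg adjustment over all 10655 genes. The fit was also run on simulated counts where far fewer genes changed than were called here, which does not speak for these data. The planned filter, a mean of at least 1, removed no gene, since the lowest mean was 15.8.

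The 89 symbols, the partner lists and the pairs were chosen with earlier results of these data known. Values for every library were given for up to 12 called genes per direction with the largest differences, up to 3 per direction of smallest p for the mother diet and the interaction, and the gene of smallest p per family; the other called genes were added by range. Of the genes counted, 1 chromatin gene, the 1 pair that holds it and 1 B cell marker are not reported here singly. Partners were named up to 2 per list by p, with Eed, Rbbp4 and Rbbp7 added for PRC2. Exon lengths and overlaps came from GENCODE M21 (GRCm38), which matched 10592 symbols, all 89 included, 1 of them by an older symbol. Same-numbered replicates of different groups did not deviate together, with correlations of -0.232 to 0.074 in 18 pairs, so the numbers were not taken to pair libraries. Alternatives were pseudocount 8, a mean of at least 100, TMM and upper-quartile scaling, array weights, edgeR 4.0.16 and DESeq2 1.42.0 on the recovered reads, a replicate block, the groups of a contrast alone, and each library left out.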

Additional observations from a re-analysis of the deposited data

How the results depend on the processing

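Averaged over mothers, the count of called chromatin genes was 19 and lay between 15 and 25 with single libraries left out (31% to 37.3% of all genes). It was 23 with pseudocount 8, 22 with edgeR, 27 with DESeq2 (6 rose and 21 fell) and 32 with array weights (3 rose and 29 fell). A mean of at least 100 kept 76 of the 89 genes for testing, and 20 of those were called. Over all genes pseudocount 8 called 40%, edgeR 35.6%, DESeq2 42.3% and array weights 44.4%, against 37.8%. The filter at a mean of 100 called 36.6% of the table, with its untested genes counted as not called. Under TMM scaling 2 rose and 24 fell, and under upper-quartile scaling 1 rose and 24 fell, against 3 and 16. Calls then covered 38.7% and 38.9% of all genes. These scalings put the median log2 difference of all genes at -0.12 and -0.17, against -0.02, and that of the 89 at -0.60 and -0.64. No such value exists for the groups of a contrast alone, since the average needs all 4. For CD_WD against CD_CD the count was 6, with 30 under array weights and 10 with DESeq2 (39.8% and 22.3% of all genes, against 15%). With single libraries left out it was 0 to 10. It was 0 without any CD_CD library (6.55% to 10.4% of all genes). It was 2 without CD_WD replicate 2 (12% of all genes) and 10 without WD_WD replicate 3 (15.1% of all genes). For WD_WD against WD_CD the count was 15 (24.4% of all genes), and 9 under array weights (21.8%). With single libraries left out it was 8 to 17 (15% to 31.3% of all genes). The cause was not tested. The count of passing ratios was 0, with 4 at pseudocount 8 and 0 to 5 with single libraries left out (4 without CD_WD replicate 3, 5 without WD_WD replicate 1).

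The replicate block gave 19 called genes, 18 of them shared, with Setd4 lost and Kdm4b gained, and 2 of 12 libraries correlated best with their own number. Over all genes the block called 35.8%. Both mother diet comparisons and the interaction had 0 calls among the 89 under every setting run. In WD_WD replicate 3, the library with fewest reads, Setd4 held 4 reads, Kdm4b 3 and Setd1b 4, so their values there rest on few reads. Kdm4b held its fewest, 1 read, in WD_WD replicate 2, a library with 12487609 reads in the deposited genes. The part of depth in these values was not tested.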
